A study of Mus musculus with 139 samples.

Results

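Heart was set against skeletal muscle in a small RNA atlas of the mouse, using 27 of the 134 libraries of the deposited count table, 13 labelled heart and 14 labelled muscle. Members were taken by tissue name, and a heart and a muscle library were paired where they carried the same replicate number, which marks 1 animal. This gave 13 pairs, and the muscle library of animal 10, which has no heart partner, entered only fits without pairing. Each animal was an untreated wild-type C57BL/6J mouse, 3 months old, and no group carried a treatment or an engineered allele. Animals 1 to 9 were female and their heart and muscle libraries shared pool N469. Animals 11 to 14 were male and were in pool N541, so that sex and pool are the same split. The labels name neither the muscle nor the part of the heart that was taken.

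Both tissues are striated muscle. They share a set of muscle miRNAs, often called myomiRs, some of which lie in introns of myosin heavy chain genes and are made together with the myosin. Other miRNAs are encoded inside the Hox clusters, whose genes are expressed according to position along the body axis. Others lie in the imprinted Dlk1-Dio3 region, where the miRNAs are transcribed from the maternal chromosome. Heart is rich in mitochondria, whose genome encodes its own set of tRNAs.

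The mature miRNAs on which the comparison turns are shown first, 5′ to 3′, with the seed (bases 2 to 8, which pair with target mRNAs) in capitals. They are RefSeq sequences on GRCm38.p6. The counts are per gene and do not separate the arms of a hairpin, so the arm usually described as the active one is shown. Of 221 miRNA genes described here, 195 had a mature sequence in the RefSeq table. The first set was high in heart, together with miR-208b, whose level in muscle varied from mouse to mouse.
miR-208a-3p: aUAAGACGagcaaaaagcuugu
miR-208b-3p: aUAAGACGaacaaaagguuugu
miR-499-5p: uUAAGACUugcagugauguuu
miR-490-3p: cAACCUGGaggacuccaugcug
miR-451a: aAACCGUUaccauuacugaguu
miR-144-3p: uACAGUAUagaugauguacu
The second set was high in muscle. The pair miR-10b and miR-10a is shown because only miR-10b met both criteria for a call.
miR-206-3p: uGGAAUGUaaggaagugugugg
miR-133b-3p: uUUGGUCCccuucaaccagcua
miR-196a-5p: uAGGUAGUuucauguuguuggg
miR-196b-5p: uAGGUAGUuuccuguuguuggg
miR-10b-5p: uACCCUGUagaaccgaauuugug
miR-10a-5p: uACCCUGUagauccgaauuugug
miR-127-3p: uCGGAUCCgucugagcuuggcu
miR-434-3p: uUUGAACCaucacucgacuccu
miR-136-5p: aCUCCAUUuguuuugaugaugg

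The myosin-encoded miRNAs miR-208a and miR-208b share all 7 seed bases, and 19 of their 22 bases are identical. Counted from 1 at the 5′ end, with miR-208a first, they differ at G10A, A16G and C18U. The seed of miR-499 shares 6 of 7 bases with that of miR-208a and differs at G8U. miR-196a and miR-196b have 1 seed and differ at A12C, and miR-10a and miR-10b also have 1 seed and differ at U12A. The seeds of miR-206 and miR-133b are unlike each other, although both lie in exons of 1 long non-coding RNA gene (Gm28653) at chr1:20679055-20679076 and chr1:20682834-20682855 on the plus strand. miR-208a lies in an intron of Myh6 at chr14:54949072-54949093 on the minus strand, miR-208b in an intron of Myh7 at chr14:54975710-54975731 on the minus strand, and miR-499 in an intron of Myh7b at chr2:155622893-155622913 on the plus strand. miR-490 lies in an intron of the muscarinic receptor gene Chrm2 at chr6:36421800-36421821. miR-10b lies in introns of Hoxd3 and Hoxd4 at chr2:74726074-74726096, and miR-196b in an exon of Hoxa9 at chr6:52230129-52230150 on the minus strand. miR-127, miR-434 and miR-136 lie at chr12:109592888-109592909, chr12:109594565-109594586 and chr12:109595331-109595352 on the plus strand, each within an exon of Rtl1 on the opposite strand. Whether the authors' counting used strand is not given in the sources used here.

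Depth ran from 2372692 to 11792317 counts in heart and from 2469371 to 27644673 in muscle. Some libraries stood apart. Mir10b took 60.49% of all counts in Muscle 2 and 31.57% in Muscle 13, against 5.34 to 19.69% in the other 11 paired muscle libraries. The TMM scaling factors, which correct for such dominance, were 0.245 and 0.339 for these 2 libraries. Both tissues of animals 6 to 9 held 0.149 to 0.400% Mir1a-1 and the unpaired Muscle 10 held 0.516%, against 1.87 to 9.75% in the other animals. The pairs were therefore also compared without animals 2 and 13 and within each animal set. Values below are CPM (counts relative to library size) after TMM scaling unless a percent of raw counts is given, and a log2 difference is heart over muscle, with its standard error, from edgeR's quasi-likelihood test with the animal as a block. A call needed a log2 difference of at least 1 in size and a Benjamini-Hochberg adjusted p under 0.05.

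Of 640 genes tested, 100 (15.6%) were called higher in heart and 153 (23.9%) higher in muscle, 39.5% in either direction. The median log2 difference over all genes was -0.26, and it moved to -0.08 with DESeq2 size factors and to 0.36 with unscaled library totals. The split then became 120 against 124 and 186 against 81. Scaling over miRNA genes only gave 88 against 171. Without animals 2 and 13 it was 138 against 133. In 52 genes (8.12%) no heart library overlapped a muscle library, 13 of them higher in heart and 39 higher in muscle. In 176 genes (27.5%) all 13 mice changed in the same direction.

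**Figure D1:**
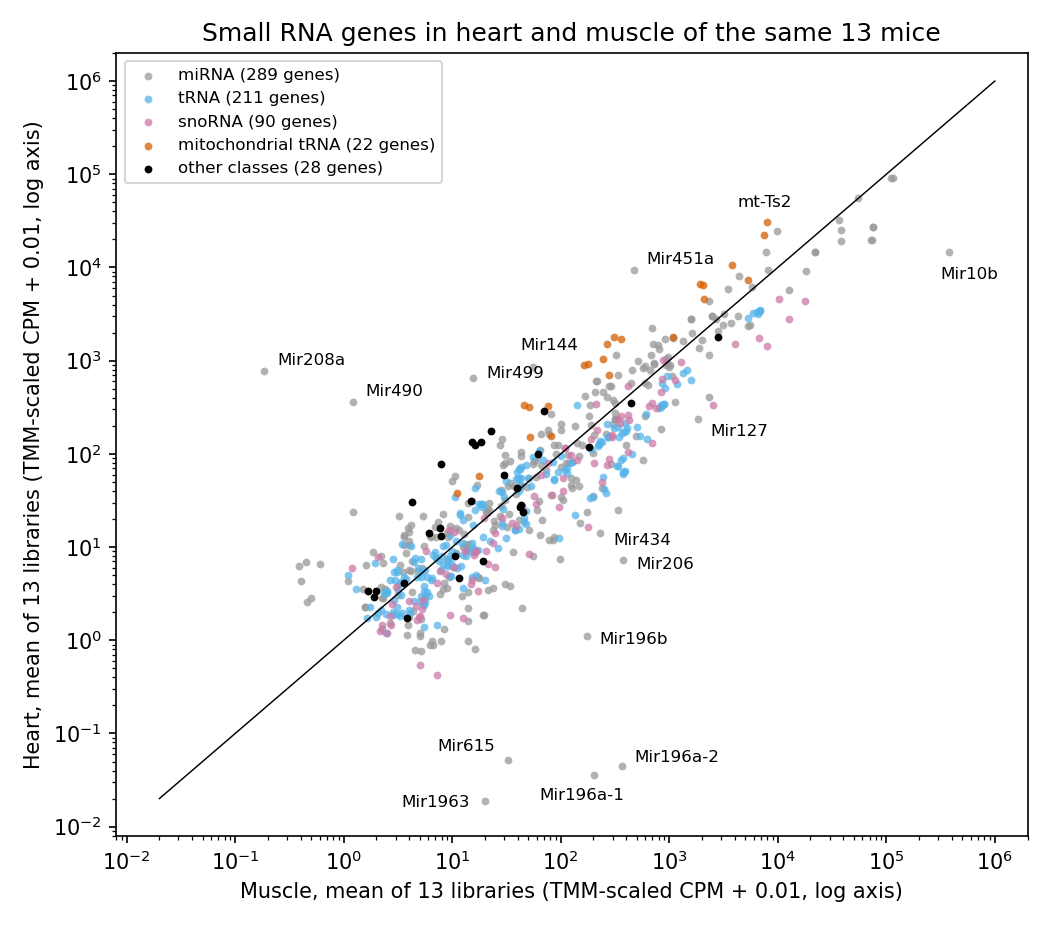
Mean TMM-scaled CPM (plus 0.01) of the 640 tested genes in the 13 paired muscle libraries (horizontal, log axis) and the 13 paired heart libraries (vertical, log axis), coloured by RNA class, with the line of equal level. Mir208a, Mir490 and Mir499 lie far above the line, and Mir196a-1, Mir196a-2, Mir196b and Mir206 far below it.

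The myosin-encoded Mir208a, which acts on the balance of cardiac myosin forms, showed the largest difference in favour of heart. It stood at 313 CPM in the lowest heart library, 775 in the median and 1227 in the highest. In muscle the lowest was 0, the median 0.0451 and the highest 0.834, from 18 counts in 13 libraries, 6 of which held none. The groups did not overlap, and the pooled ratio of heart to muscle was 7375 (exact 95% interval 4666 to 12445, counting error only). The fitted log2 difference was 12.16 ± 0.63 (edgeR adjusted p = 3.63e-11), and 13 of 13 mice were higher in heart.

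Mir499, encoded in Myh7b, ran from 163 CPM through a median of 662 to 1101 in heart. In muscle it ran from 0.782 through 12.9 to 53.0, so the tissues did not overlap (5.70 ± 0.54, edgeR adjusted p = 1.04e-07). Mir208b, encoded in the slow myosin gene Myh7, behaved unlike its relative: 32.0, 73.1 and 133 CPM in heart against 0.535, 97.6 and 347 in muscle. The muscle libraries covered the whole range of the hearts and beyond, and the difference did not pass (0.26 ± 0.88, edgeR adjusted p = 0.804). Within animals 6 to 9 it pointed to muscle (-1.26, edgeR adjusted p = 0.0185), and within pool N541 to heart (4.52, edgeR adjusted p = 0.0311). The test of that pool difference gave 5.41 ± 1.42 with an edgeR adjusted p of 0.0575 and so did not pass. Among the 640 genes, 6 passed that test (0.938%).

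The same muscle libraries were lowest, and the same one highest, for both of these miRNAs. Muscle 14, 5, 12 and 11 held the 4 lowest levels of Mir208b, 0.535, 2.10, 2.39 and 4.91 CPM, from 13 to 98 counts. They were also the 4 lowest for Mir499, at 0.782, 3.90, 4.37 and 5.56 CPM in the same order. Muscle 1 was the highest for both, with 347 CPM of Mir208b and 53.0 CPM of Mir499. These 4 low libraries came from both pools. The pattern was noticed after the values were seen and was not tested.

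Mir490, from the intron of Chrm2, ran from 130 through 364 to 576 CPM in heart and from 0 through 1.09 to 3.19 in muscle. The groups did not overlap, and the difference was the next largest in favour of heart after that of Mir208a (8.54 ± 0.36, edgeR adjusted p = 1.86e-12).

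Mir206, the skeletal muscle member of the miR-1 family, was low in heart and high in muscle. It ran from 107 through 325 to 1031 CPM in muscle and from 0.330 through 9.60 to 12.7 in heart, with no overlap (-6.08 ± 0.44, edgeR adjusted p = 4.08e-09). The 4 hearts of animals 6 to 9 held 0.330 to 0.480 CPM, from 2 to 6 counts each, and the other 9 hearts 7.41 to 12.7. The log2 difference was -8.05 within animals 6 to 9, -5.65 within animals 1 to 5 and -4.67 within pool N541. Its neighbour Mir133b, 3686 bases away by hairpin, ran from 429 through 765 to 1616 CPM in muscle against 84.0, 176 and 273 in heart, again without overlap (-2.10 ± 0.23, edgeR adjusted p = 5.49e-07).

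The abundant muscle miRNAs Mir1a and Mir133a, which are each encoded at 2 loci, were higher in muscle by a smaller factor. Mir133a-2 took 1.51, 3.07 and 7.50% of counts in the lowest, median and highest heart library, and 1.25, 7.32 and 8.55% in muscle. The groups overlapped. The lowest muscle values were those of Muscle 13 and Muscle 2, and the other 11 paired muscle libraries held at least 5.83%. By raw share Mir133a-2 was higher in heart in animals 1, 2 and 13. On the TMM scale the difference was -1.55 ± 0.18 (edgeR adjusted p = 9.70e-07), all 13 mice being higher in muscle. Within pool N541 it did not pass (-1.26, edgeR adjusted p = 0.0818). For Mir1a-1 the shares were 0.149, 2.74 and 4.13% in heart and 0.280, 5.63 and 9.75% in muscle. The difference was -1.60 ± 0.18 (edgeR adjusted p = 9.36e-07), and it was -0.86 within animals 6 to 9, where both tissues were low, and -1.71 within animals 1 to 5. The 2 copies of Mir1a had counts in a ratio of 1.003 and those of Mir133a in a ratio of 0.998, so the copies are not independent measurements.

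Of the 10 striated muscle miRNAs in the table, 9 were tested. Mir208a and Mir499 were higher in heart, 6 were higher in muscle and Mir208b was neither (15.6 and 23.9% of all genes were called in heart and muscle), around a median of -1.55 against -0.26 for all genes. With unscaled totals 2 remained called in muscle, Mir206 and Mir133b, where 81 of all 640 genes were. Mir1a-1 (-0.93) and Mir133a-2 (-0.92) fell short of the size criterion there. The untested member, Mir1b, had 27 counts in heart and 10 in muscle. As a check of the labels, Mir208a was read in all 13 hearts and Mir206 was higher in muscle in all 13 pairs.

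**Figure D2:**
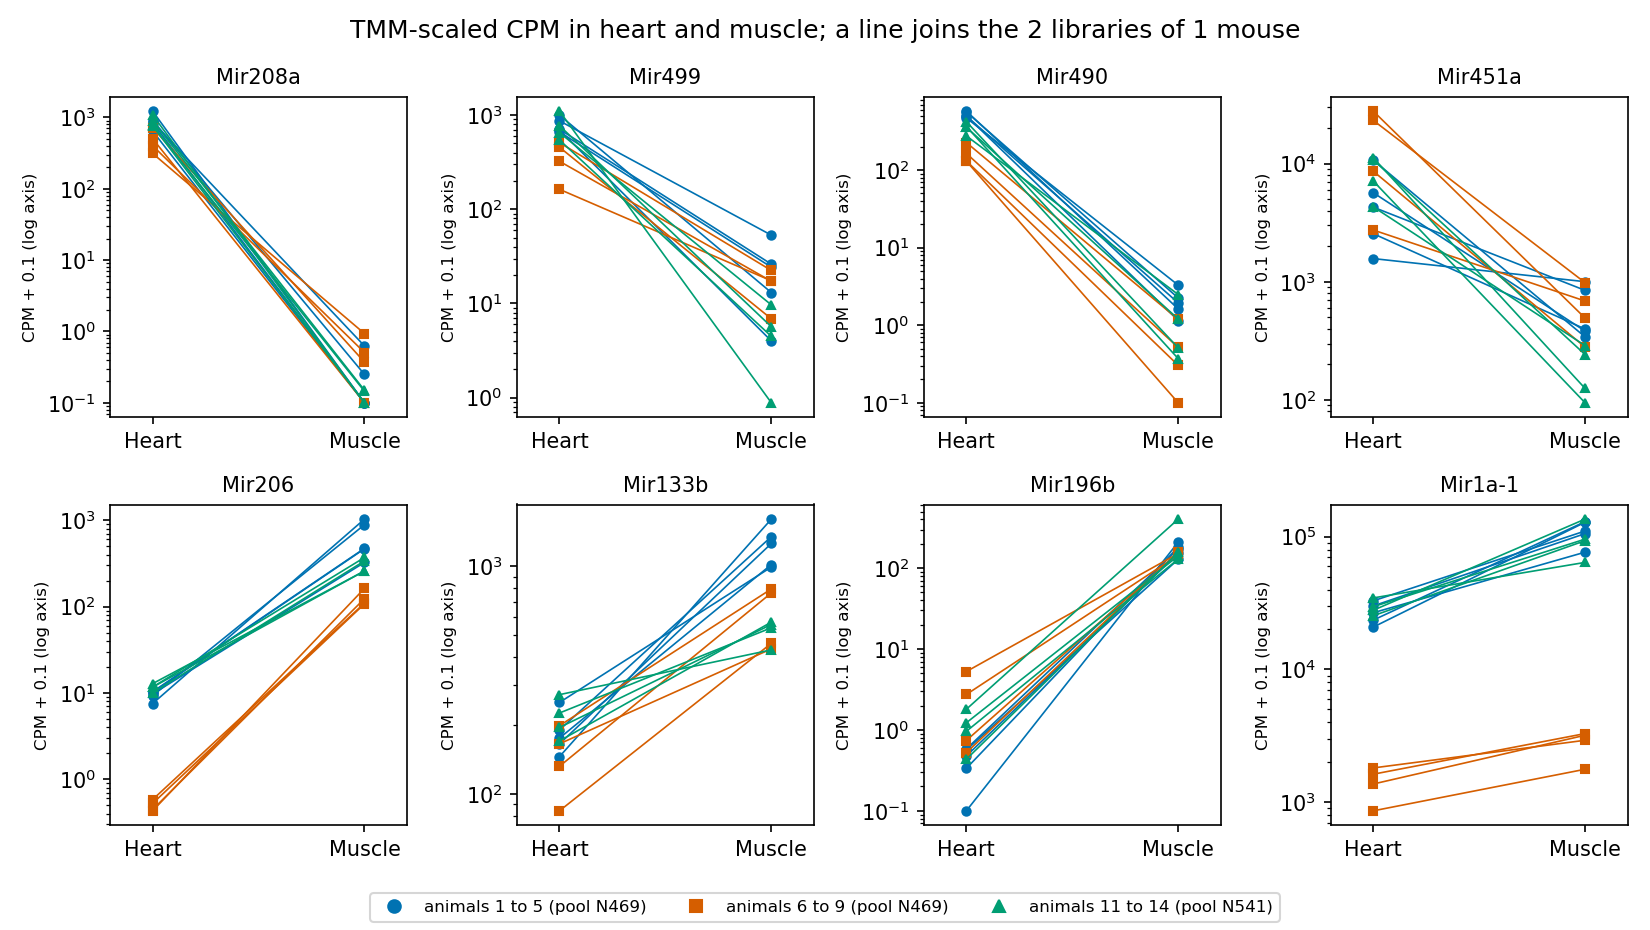
TMM-scaled CPM plus 0.1 (log axis) of 8 miRNAs in heart and muscle, each line joining the 2 libraries of 1 of 13 mice, with colour and symbol for the animal set. Heart and muscle do not overlap for the first 7, and Mir1a-1 of animals 6 to 9 lies below all other mice in both tissues.

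Erythroid miRNAs were split by gene. Mir451a, which is cut by Ago2 instead of Dicer in red cell precursors, ran from 1571 through 7131 to 27841 CPM in heart and from 94.3 through 382 to 1001 in muscle. Its neighbour Mir144, 99 bases away by hairpin, ran from 130 through 719 to 1805 against 26.0, 52.4 and 97.2. Neither overlapped between the tissues (4.22 ± 0.51, edgeR adjusted p = 1.44e-06, and 3.68 ± 0.46, edgeR adjusted p = 2.09e-06). Mir486, which both red cells and muscle make, took 5.60, 11.4 and 14.95% of counts in heart and 3.56, 6.40 and 13.7% in muscle, and it was not called (0.08 ± 0.27, edgeR adjusted p = 0.814). Without animals 2 and 13 it stood at 0.74 (edgeR adjusted p = 0.0052), still under the size criterion. It overlaps Mir3107 on the opposite strand with nearly the same count and cannot be separated from it. Blood in the tissue and erythroid RNA made there cannot be told apart in bulk samples, nor can fewer cells of a type and less RNA per cell.

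miRNAs of other cell types were looked at in the same way. Mir126a, an endothelial miRNA, was higher in heart in 13 of 13 mice (3701 to 17791 CPM against 1819 to 10284). Its difference of 0.96 ± 0.14 (edgeR adjusted p = 2.00e-05) fell short of the size criterion, which it passed with DESeq2 size factors (1.15) and unscaled totals (1.63). Mir142, a marker of white blood cells, rose in heart (229, 839 and 2090 CPM against 76.4, 319 and 524, 1.73 ± 0.32, edgeR adjusted p = 0.000165), while Mir223, of myeloid cells, did not differ beyond its error (0.06 ± 0.19). The smooth muscle miRNA Mir143 stood at -0.10 ± 0.19 and changed sign to 0.38 without animals 2 and 13 and to 0.56 with unscaled totals. Mir145a stood at 0.38 ± 0.14. The 4 stromal miRNAs of the Mir199 and Mir214 loci were not called, although 2 were with unscaled totals and 2 without animals 2 and 13. Of all genes, 186 of 640 and 138 of 688 were called in heart in those settings. Summed without scaling, the endothelial list came to 4579 to 26495 CPM in heart and 809 to 12028 in muscle, and the haematopoietic list to 385 to 3371 against 31.2 to 578. Among markers of other organs, the liver miRNA Mir122 did not exceed 7.16 CPM in any heart or 18.98 in any paired muscle library, and the 5 pancreas miRNAs together did not exceed 1.62. The intestine list, however, summed to 564 to 882 CPM in heart and 130 to 318 in muscle, and the neuronal list to 122 to 286 and 67.4 to 558. The epithelial list summed to 93.2 to 289 CPM in heart and 22.4 to 272 in muscle. Of its 4 tested members 3 were called in heart (15.6% of all genes), and Mir203 was not (0.16). Only 2 of the 4 had a median of at least 10 counts in both tissues, of which 1 was called. Mir141, an epithelial miRNA, ran from 5.36 through 37.6 to 185 CPM in heart against 1.63, 9.14 and 20.3 (2.28 ± 0.40, edgeR adjusted p = 8.76e-05), and Mir200a and Mir200b rose with it. None of the 3 was called within animals 6 to 9, and their part in other results was not tested.

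The miRNAs of the Hox clusters favoured muscle. Mir196a-1 ran from 99.8 through 157 to 477 CPM in muscle and was read once among 13 hearts, a pooled ratio of 11583 (exact 95% interval 2079 to 457534, counting error only). Mir196a-2 ran from 181 through 279 to 787 CPM and had 4 counts in heart, a ratio of 5046 (1971 to 18522). Mir196b, from the Hoxa cluster, ran from 128 through 155 to 404 CPM in muscle against 0, 0.482 and 5.17 in heart, with no overlap (-7.74 ± 0.47, edgeR adjusted p = 3.06e-10). These 3 genes share 1 seed, and all 3 were near or at 0 in heart. Mir196a-1 and Mir196a-2 are copies of 1 miRNA, so their values may not be independent.

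Mir10b, from the Hoxd cluster, took 5.34, 12.5 and 60.5% of counts in the lowest, median and highest muscle library and 0.952, 1.86 and 3.24% in heart, with no overlap (-3.64 ± 0.43, edgeR adjusted p = 1.14e-06). Without animals 2 and 13, whose muscle held the 2 highest shares, the difference was -2.84. Mir10a, which differs from it by 1 base in the mature miRNA, took 1.07, 2.27 and 3.42% in heart and 1.66, 2.92 and 4.89% in muscle. Its difference of -0.97 ± 0.22 (edgeR adjusted p = 0.000957) did not reach the size criterion, and it was -0.30 (edgeR adjusted p = 0.224) with unscaled totals. All 5 Hox-encoded genes of the list were tested, 4 were called in muscle and none in heart (23.9 and 15.6% of all genes). Only 2 of the 5 had a median of at least 10 counts in both tissues, of which 1 was called, so the others passed the filter through muscle. With miRNA-only scaling Mir10a was called too (-1.09). Muscle 2, the highest for Mir10b, was the lowest paired muscle library for Mir10a at 1.66%, and Muscle 13 held 2.92%.

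**Figure D3:**
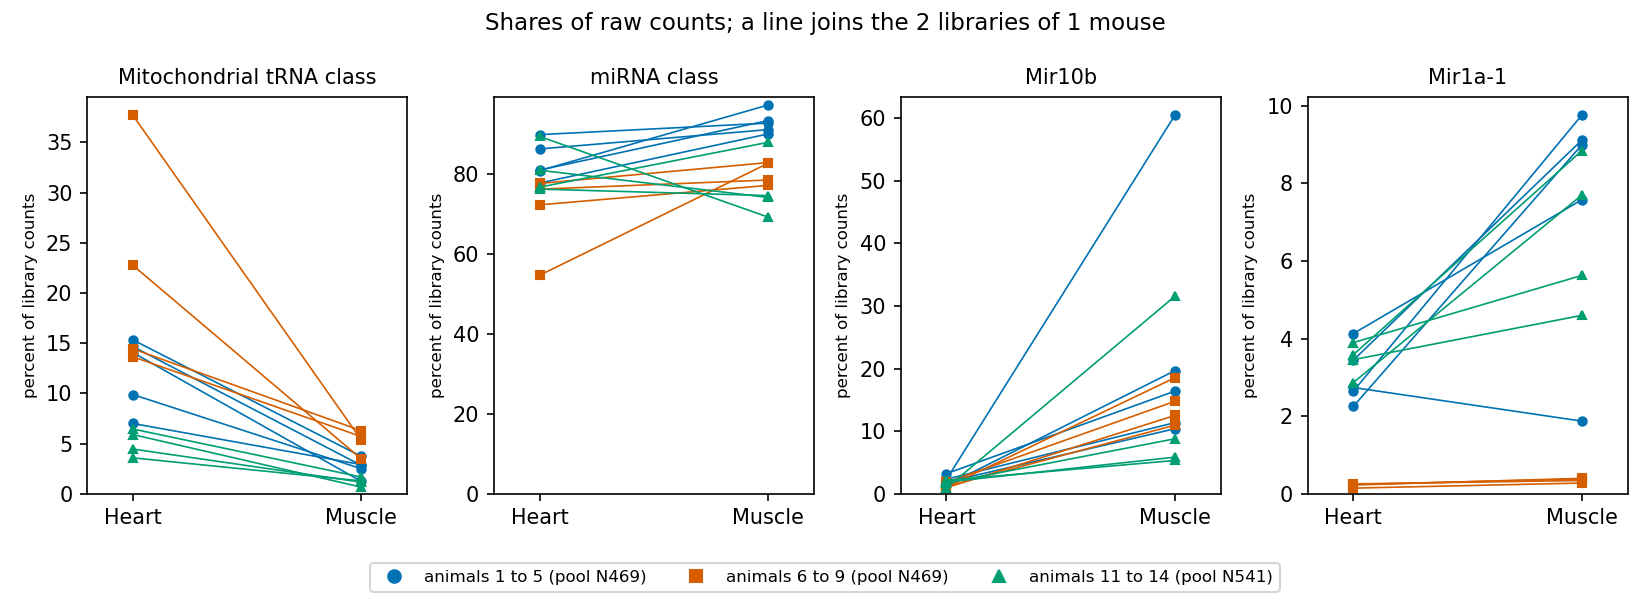
Percent of raw counts in heart and muscle for the mitochondrial tRNA class, the miRNA class, Mir10b and Mir1a-1, each line joining the 2 libraries of 1 of 13 mice. Mitochondrial tRNA fell from heart to muscle in all 13 mice, and Mir10b of Muscle 2 and Muscle 13 stood at 60.49 and 31.57%.

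Of 56 Dlk1-Dio3 miRNAs in the table, 25 passed the filter on low counts, and these lie between bases 109571990 and 109743795 of chromosome 12. 24 of the 25 were higher in muscle (23.9% of all genes) and none in heart, and their median was -2.91 against -0.26 for all genes. Since a gene could pass the filter through muscle alone, the 17 with a median of at least 10 counts in both tissues were also counted, and 16 of them were called in muscle. Among the 31 untested members, the pooled level was higher in muscle for 27 and higher in heart for none, and 4 had no count. Summed over the 56 genes without scaling, the level ran from 252 through 525 to 1388 CPM in heart and from 886 through 2826 to 7164 in muscle, and 0 of 13 mice were higher in heart.

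Mir127, which lies opposite the retrotransposon-derived gene Rtl1, was the most abundant of them. It ran from 90.2 through 210 to 443 CPM in heart and from 589 through 1784 to 3374 in muscle, with no overlap (-2.93 ± 0.25, edgeR adjusted p = 3.54e-08). Mir434, 1590 bases on by hairpin, ran from 6.38 through 11.7 to 26.4 CPM against 95.2, 197 and 488 (-4.04 ± 0.20, edgeR adjusted p = 1.81e-11). Mir136, 727 bases further, ran from 12.2 through 21.9 to 41.1 CPM against 152, 281 and 543 (-3.69 ± 0.22, edgeR adjusted p = 3.06e-10). Each of these 3 was separated between the tissues. Across the cluster 15 of the 25 did not overlap, against 8.12% of all genes. Mir381 (-3.09) and Mir411 (-2.91) did overlap, although all 13 mice had more in muscle. The exception was Mir134, at -0.98 ± 0.21 (edgeR adjusted p = 0.000582). The per-mouse median over the 25 genes ran from -3.97 in animal 13 to -1.56 in animal 12, and in 11 of 13 mice all 25 pointed to muscle. The count of 24 was the same with DESeq2 size factors and with unscaled totals, and 25 were called with miRNA-only scaling.

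**Figure D4:**
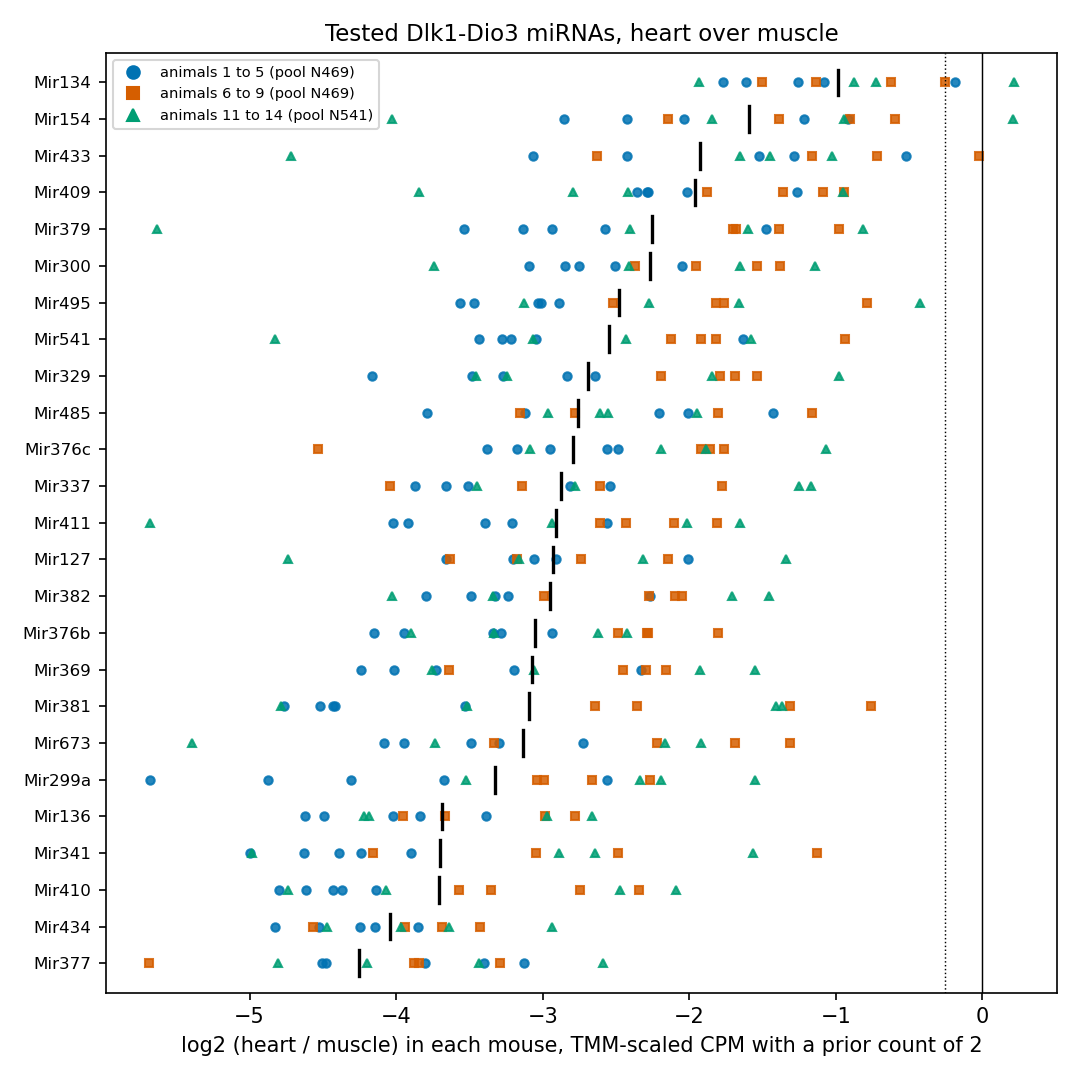
Log2 ratio of heart to muscle in each of 13 mice (points, prior count of 2) for the 25 tested Dlk1-Dio3 miRNAs, with the fitted difference as a bar, 0 as a solid line and the median of all 640 genes as a dotted line. The bars run from -4.26 for Mir377 to -0.98 for Mir134.

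Mitochondrial tRNAs made up more of the heart libraries. The class took 3.59, 13.7 and 37.7% of counts in the lowest, median and highest heart library and 0.679, 2.85 and 6.30% in muscle. The ranges overlapped, with the 4 hearts of pool N541 at 3.59 to 6.47% and the highest muscle library, Muscle 7, at 6.30%. Within mice the share was higher in heart in 13 of 13, by 10.1 ± 8.18 percentage points (SD, n = 13 pairs, permutation of the labels within pairs, adjusted p = 0.000854). The smallest p these swaps can give is 0.000244. Heart 6 held the highest share, and without animal 6 the difference was 8.23 points. Within pool N541 it was 3.90 points, where 4 pairs cannot give an exact p below 0.125.

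All 22 mitochondrial tRNA genes were tested, and 17 were called higher in heart (15.6% of all genes) and none in muscle, with a median of 1.68. None of the 22 was separated between the tissues, although 11 were higher in heart in 13 of 13 mice. The largest differences were for mt-Tw, the tryptophan tRNA (51.9, 184 and 1380 CPM against 8.36, 18.3 and 168, 2.71 ± 0.31, edgeR adjusted p = 9.36e-07), and mt-Tf, the phenylalanine tRNA (2.69 ± 0.24, edgeR adjusted p = 7.18e-08). mt-Te, the glutamate tRNA, followed with 437, 1779 and 4838 CPM against 95.5, 306 and 555 (2.5 ± 0.19, edgeR adjusted p = 1.01e-08). The most abundant, the serine tRNA mt-Ts2, ran from 7861 through 22884 to 72249 CPM in heart and from 1521 through 8587 to 15152 in muscle (1.95 ± 0.19, edgeR adjusted p = 2.00e-07).

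The 5 that were not called were mt-Tm (0.33 ± 0.18), mt-Tr (0.61 ± 0.38), mt-Tq (0.72 ± 0.21), mt-Tg (0.87 ± 0.42) and mt-Tl1 (0.98 ± 0.20). mt-Tm, the methionine tRNA, was abundant in both tissues, with a mean of 7295 CPM in heart and 5347 in muscle. Genes of both strands took part: 10 of 14 on the plus strand were called, with a median of 1.58, and 7 of 8 on the minus strand, with a median of 1.77. The glycine tRNA mt-Tg depended on the animal set, with 1236 to 28075 CPM in the hearts of animals 1 to 9 and 183 to 697 in those of animals 11 to 14. The tyrosine tRNA mt-Ty was low in animals 1 to 5 instead, at 122 to 1059 CPM in heart, against 5521 to 24961 in the hearts of the other mice. The number called was 19 with DESeq2 size factors, 21 with unscaled totals, 20 without animals 2 and 13, 21 within pool N469 and 11 within pool N541. Of all genes, 120 of 640, 186 of 640, 138 of 688, 152 of 630 and 96 of 721 were called in heart in these settings.

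**Figure D5:**
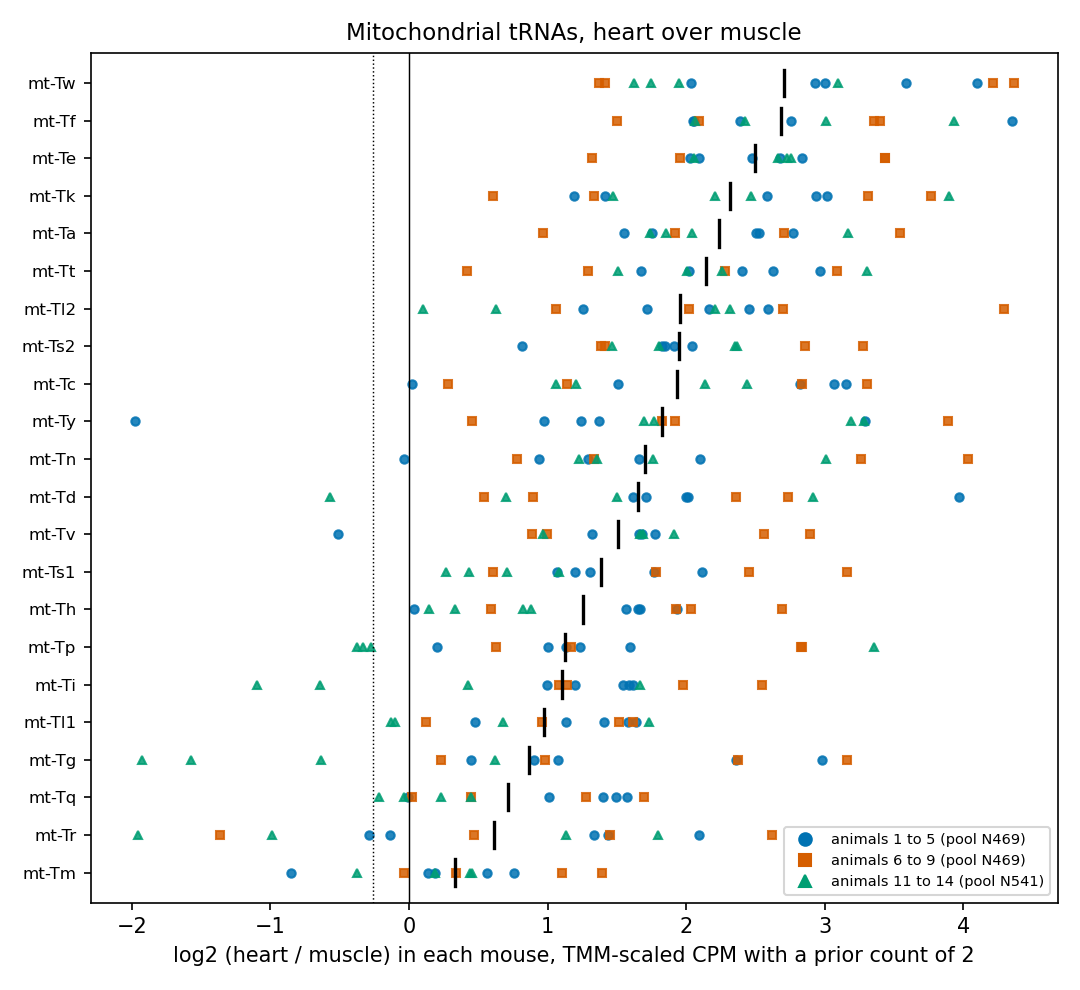
Log2 ratio of heart to muscle in each of 13 mice (points, prior count of 2) for the 22 mitochondrial tRNAs, with the fitted difference as a bar, 0 as a solid line and the median of all 640 genes as a dotted line. The bars run from 0.33 for mt-Tm to 2.71 for mt-Tw, and each gene has points from all 3 animal sets.

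Other RNA classes were compared by share in the same 13 pairs, 7 classes in all. The miscellaneous class, which holds the 7SL RNA of the signal recognition particle, Y RNAs and vault RNA, took 0.202 ± 0.190% in heart and 0.0603 ± 0.0287% in muscle (SD, n = 13), and was higher in heart in 13 of 13 mice (permutation adjusted p = 0.000854). Of its 13 tested genes 7 were called in heart (15.6% of all genes) and none in muscle. These 7 include copies of 7SL that can share reads, so they are not 7 independent measurements. Among these the 7SL gene Rn7s1 ran from 19.5 through 61.3 to 559 CPM against 6.09, 16.4 and 43.0 (2.23 ± 0.34, edgeR adjusted p = 2.27e-05), and its copies Rn7s2 (2.28) and Rn7s6 (2.44) can share its reads. The vault RNA gene Vaultrc5 rose by 1.78 ± 0.34 (edgeR adjusted p = 0.000241). The Y RNAs, which bind the Ro protein, were not called: Rny3 stood at 0.84 ± 0.23, and Rny1 at -0.35 ± 0.14 but at 0.32 with unscaled totals.

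miRNA took 78.5 ± 8.88% in heart and 84.0 ± 8.79% in muscle, snoRNA 3.19 ± 3.52 against 5.86 ± 7.42%, and tRNA 4.76 ± 2.80 against 6.87 ± 4.37% (SD, n = 13). None of these 3 passed the permutation test (adjusted p = 0.176 for each), and neither did small nuclear RNA. The scaRNA share, 0.238 ± 0.124% against 0.164 ± 0.0987%, was higher in heart in 11 of 13 mice (permutation adjusted p = 0.0496), but it missed the threshold when any 1 of 11 mice was left out (each but animals 7 and 13) and in the unpaired test (permutation adjusted p = 0.167). Of 211 tested tRNA rows, 49 were called in muscle, close to the 23.9% of all genes, and 8 in heart, below the 15.6%. Their median was -0.59 against -0.26 for all genes. With unscaled totals 21 were called in muscle and 24 in heart, with a median of 0.02. Over all 640 genes that scaling called 81 in muscle and 186 in heart, with a median of 0.36. tRNA_row_1336 led in muscle (-2.70 ± 0.28). The amino acid of these rows is not given in the table. Most snoRNAs guide the modification of ribosomal RNA. Of 90 tested snoRNA genes, 24 were called in muscle, close to the 23.9% of all genes, and 2 in heart, below the 15.6%. Their median was -0.64 against -0.26. With unscaled totals the numbers were 9 and 6, and within pool N469 they were 11 and 6. Within pool N469, 115 of all 630 genes were called in muscle and 152 in heart.

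Some members of several broadly expressed miRNA families were called higher in heart. Mir17-92 and its paralogs, which promote cell proliferation, had 11 of 15 members tested, of which 7 were called in heart (15.6% of all genes) and none in muscle, with a median of 1.13. Mir20a ran from 144 through 254 to 606 CPM against 43.0, 66.1 and 143 without overlap (1.71 ± 0.27, edgeR adjusted p = 3.77e-05), and the most abundant, Mir92-1, stood at 0.91 ± 0.15. The number called was 11 with unscaled totals, 5 with miRNA-only scaling and 4 within animals 1 to 5. Mir30e ran from 14901 through 23756 to 39030 CPM in heart and from 3523 through 9710 to 16430 in muscle (1.44 ± 0.18, edgeR adjusted p = 2.29e-06). Mir30b also rose (1.13 ± 0.16), while Mir30a, the most abundant of the family, was not called (0.05 ± 0.21). Of 6 Mir30 genes tested, 2 were called in heart (15.6% of all genes). Both copies of Mir29b, which targets collagens, were called (1.43 ± 0.16 and 1.37 ± 0.17), and Mir29a (0.76 ± 0.14) and Mir29c (0.36 ± 0.16) were not, although all 4 were with unscaled totals. The 2 calls among 4 Mir29 genes (15.6% of all genes) are thus copies of 1 miRNA and may not be independent. Mir15b (2.12 ± 0.25), Mir221 (1.12 ± 0.17) and Mir34a, a target of p53 (2.30 ± 0.23), also rose in heart. Each was the only gene called in its list. Tested were 7 genes for Mir15 and Mir16, 2 for Mir221 and Mir222 and 2 for Mir34 and Mir449. Over all genes 15.6% were called in heart, and 1 of 7 is near that share. The lists of Mir23, Mir24 and Mir27 (6 tested), Mir99 and Mir125 (6), Mir26 (3), the X-linked Mir322 cluster (5) and Mir378 (4) had none called. With unscaled totals 5, 4, 0, 3 and 0 of these were called in heart. That scaling called 186 of all 640 genes in heart, which also bears on the Mir17-92 and Mir29 counts above.

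The Mir181 family went both ways. Of 6 genes tested, 2 were called in heart and 3 in muscle (15.6 and 23.9% of all genes). Mir181a and Mir181b have 2 copies each, so the values of copies may not be independent. Mir181c ran from 1290 through 2158 to 3813 CPM in heart against 237, 455 and 1700 in muscle (1.84 ± 0.20, edgeR adjusted p = 3.73e-07), and its neighbour Mir181d rose by 1.42 ± 0.21. Mir181a-1, the other copy of Mir181a, was not called. Mir181b-1 (-1.5 ± 0.23), Mir181b-2 (-1.51 ± 0.22) and Mir181a-2 (-1.07 ± 0.21) were higher in muscle. With unscaled totals and without animals 2 and 13 none of these 3 kept its call, Mir181b-1 standing at -0.85 and -0.89, while 2 members stayed called in heart. The 12 let-7 genes, a family common to differentiated tissues, were not called in either direction, with a range of -0.64 to 0.33 and a median of -0.12 that became 0.07 with DESeq2 size factors. 1 of them was called in heart with unscaled totals, where 186 of all 640 genes were.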

How the data were processed

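Values are whole-number read counts per gene, deposited by the authors as 1 table of 6114 small RNA genes. The genome build mm10 (GRCm38), STAR 2.5.1 and featureCounts are named in the submitters' processing notes. The sources used here do not give multi-mapping and strand settings, and 377 tRNA rows are known by number only. Genes with a minimum count of 10 by edgeR's filterByExpr were kept, 640 of 2054 with any count, and scaled by TMM. edgeR 4.0.16 (R 4.3.3) quasi-likelihood tests with tissue and animal as terms gave log2 differences, and Benjamini-Hochberg adjustment ran over all 640 genes. Replicate numbers pair the tissues because a number marks 1 mouse. Deviations of same-numbered libraries correlated at 0.40 to 0.80 (median 0.62, 320 genes), and 3 of 13 hearts correlated best with their own muscle. The mean correlation with other muscles of the pool was 0.09 to 0.28 for animals 1 to 9, each below its own value. For animals 11 to 14 it was 0.66, 0.70, 0.86 and 0.51, above the own value of animals 13 (0.49) and 14 (0.40). Class shares were compared by swapping labels within pairs in all combinations (scipy 1.17.1). On simulated data of 636 genes, 92.93% of genes changed by 1.5 (log2) and 99% of those changed by 2 were called. Of the unchanged genes 0.2288% were called. The effect of the choice of scaling on these percentages was not tested.

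Named genes were list members, for most lists only the most abundant ones. Added to these, per direction, were the 12 largest called differences at a mean of at least 100 CPM in either tissue. These 12 also needed the same direction in every mouse, so agreement across mice was part of their selection. Members and the 36 lists were chosen with earlier results of these data known. A gene could pass the filter through 1 tissue, so counts cover tested members only. Intervals cover counting error only. Alternatives were other scalings, DESeq2 1.42.0, no filter, no replicate block, all libraries, each pool, copies summed and each mouse left out; those on animal subsets and without animals 2 and 13 were chosen after seeing the data.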

Additional observations from a re-analysis of the deposited data

Results flagged for a closer look

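For 6 of the 640 genes (0.938%) the heart to muscle difference itself differed between the pools, by an interaction term in edgeR (Benjamini-Hochberg adjusted p = 0.0377 for each). Pool and sex are the same split and cannot be told apart. Each value is the term for N541 minus N469 from 1 fit over both pools. The values within a pool come from separate fits with their own scaling, so their difference is not that term. Mir34a stood at 1.47, with 2.25 within N469 and 3.39 within N541. The other 5 were classed as snoRNA or are unnamed gene models and pointed further to muscle in N541. Gm25911 stood at -3.34 (1.38 within N469 and -2.34 within N541), Snord110 at -1.92 (0.46 and -1.80) and Gm22486 at -1.83 (0.30 and -1.91). Snord93 stood at -1.68 (-1.02 and -3.03), and Mir3096, which the table classes as snoRNA, at -1.58 (-2.09 and -4.0). The snoRNA share of the muscle libraries was 7.63 to 18.97% in N541 and at most 3.53% in N469, and its part in these values was not tested. No gene passed with unscaled totals or when animal 4, 5, 11 or 14 was left out, and 89 passed without animal 13.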

How the results depend on the processing

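Of 61 called genes among the 134 named, 46 kept their direction and an adjusted p below 0.05 in every alternative run. Some of the 61 had been selected for large differences with the same direction in every mouse. Over the 3589 values of named genes, 2968 kept sign and side of the adjusted p threshold, 252 lost the adjusted p and 231 gained it. The sign changed in 16 values that passed before or after, given below, and in 122 that passed in neither. The number called in heart (100) was 186 with unscaled totals, 167 without a filter and 152 within pool N469. The number called in muscle (153) was 81 with unscaled totals and 262 over all libraries of the table with no replicate block. With no replicate block but the pool as a term the split was 95 against 167. Leaving out 1 mouse gave 93 to 136 in heart and 112 to 174 in muscle. The 6 genes whose difference differed by pool became 0 with unscaled totals, 22 with DESeq2 size factors, 62 without a filter and 25 with no replicate block, and 0 to 89 with 1 mouse left out. In class shares, in percentage points, mitochondrial tRNA (3.90) and miscellaneous RNA (0.0513) did not pass within N541, where no p below 0.125 is possible. miRNA passed within N469 (-9.91) and without animal 14 (-7.67, permutation adjusted p = 0.0251), ran up to -3.65 with another mouse left out, and had the opposite sign within N541 (4.35), as did tRNA (0.187), neither passing. scaRNA did not pass with no replicate block (0.0785) or within N541 (0.0178) and ran from 0.0628 to 0.0952 with 1 mouse left out, and snRNA from 0.00386 to 0.0121. With no replicate block mitochondrial tRNA differed by 9.88 points. Signs turned with unscaled totals for Mir143 (0.56), Mir214 (0.55), Mir26a-1 (0.0324), Mir26a-2 (0.0326), Mir22 (0.0178), Rny1 (0.32) and Scarna6 (0.0381). Within N469 they turned for Rny1 (0.0797), Snord110 (0.46) and Snora31 (0.12), and within animals 6 to 9 for Mir208b (-1.26), Rny1 (0.10) and Snora31 (0.20). Mir143 ran from -0.15 to 0.34 with 1 mouse left out, the latter without replicate 13, and without animals 2 and 13 Mir143 stood at 0.38 and Rny1 at 0.0039. The cause was not tested. Depth limited genes near 0 in a tissue, whose fitted differences depend on the prior count.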

Other observations

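Further genes with large differences lay outside the rule for named genes and were chosen after their values were seen. Mir31 ran from 14.6 through 24.4 to 31.0 CPM in heart and from 0 through 0.657 to 3.40 in muscle, without overlap (4.48 ± 0.32, edgeR adjusted p = 4.08e-09). Mir135a-1 (4.08 ± 0.36) and Mir135a-2 (3.60 ± 0.36), copies of 1 miRNA, were also higher in heart in 13 of 13 mice, as were Mir153 (3.57 ± 0.36) and the X-linked Mir871 (3.96 ± 0.27), Mir201 (2.93 ± 0.44) and Mir547 (2.78 ± 0.42). Their median level in heart was at most 7.01 CPM. In muscle, Mir615, at chr15:103014910-103015001 in the Hoxc region, ran from 11.4 through 36.0 to 45.2 CPM and had 4 counts over all hearts, a pooled ratio of 634 (exact 95% interval 247 to 2328). Mir1963 at chr7:29083636-29083694 had 1 count in heart and 1800 in muscle, a ratio of 1060 (190 to 41907). Mir708 ran from 12.0 through 39.0 to 92.1 CPM in muscle against 1.02, 2.12 and 4.13 (-4.08 ± 0.32, edgeR adjusted p = 1.35e-08). The neighbours Mir193b (-2.25 ± 0.24) and Mir365-1 (-2.68 ± 0.22) on chromosome 16, and their paralogs Mir193a (-2.69 ± 0.39) and Mir365-2 (-2.78 ± 0.21) on chromosome 11, were higher in muscle in 13 of 13 mice, as was Mir146b, a miRNA of the inflammatory response (-2.46 ± 0.23).

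Small sets of other organs also differed. The 4 miRNA genes of the Mir192 and Mir194 loci, abundant in intestine, were all called in heart (15.6% of all genes, median 1.30). Mir192 ran from 322 through 529 to 723 CPM against 151, 210 and 619. Mir194-1 and Mir194-2 are copies of 1 miRNA and may not be independent. Within animals 6 to 9, 2 of the 4 were called. Of 10 tested miRNAs known from neurons, 5 were called in heart, among them Mir218-2 (1.96 ± 0.27), and 3 in muscle, led by Mir128-2 (-1.74 ± 0.15), against 15.6 and 23.9% of all genes. With unscaled totals these became 7 and 1, where 186 and 81 of all 640 genes were called. Mir9, Mir128 and Mir218 each enter as more than 1 copy, so the 10 are not independent.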
